A study of Mus musculus with 12 samples.

Results

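The acute phase proteins of hepatocytes are described here by 10 genes, Saa1, Saa2, Saa3, Lcn2, Orm1, Orm2, Hp, Hpx, Crp and Apcs, out of 18193 genes with a probe set of their own on the arrays. A probe set, the group of short probes that measures one transcript, was taken where its annotation named one of these genes and no other, which gave 11 of 45037 probe sets, 2 of them for Saa1 and 1 for each other gene. The rule uses gene names and no measured value, but the genes were listed with earlier results of these data known. Counts of members set beside the share of all genes are therefore descriptions and carry no independent test. Hepatocytes secrete these proteins into the blood, and most of them are made in larger amounts within hours of an infection or an injury. Interleukin 6 and interleukin 1 from activated macrophages drive that response through the transcription factors STAT3, NF-kB and C/EBP, while albumin and other carrier proteins are made less. In the mouse, serum amyloid A is the strongest responder and C-reactive protein, the classical human marker, responds little.

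The study asked how loss of Dscr-1, an inhibitor of calcineurin and NFAT signalling encoded by Rcan1, acts on the liver and on the aorta when apolipoprotein E is also missing. Liver RNA was measured on 8 arrays, with 2 arrays for each of 4 groups of adult C57BL/6J mice: Dscr-1 and ApoE double null, ApoE null, Dscr-1 null and WT. Cultured aortic endothelial cells, isolated as primary cells and grown for several days, were measured on 4 arrays, 2 from double null and 2 from ApoE null mice, so that every aortic array came from mice labelled as lacking ApoE. For the liver mice the labels give a high-fat diet (HFD) for 12 weeks, whereas the study's results text gives normal chow for the arrays, and all 4 liver groups share that doubt. Both null alleles are carried in every cell, so a difference in liver RNA is not tied to hepatocytes, and in whole liver fewer cells of a type and less RNA per cell cannot be told apart. The labels give no animal identity beyond a replicate number, so p-values measure only the spread between these arrays, and 2 arrays per group limit their precision.

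Apoe, the targeted gene, had a liver signal of 79.8 to 305.0 on the 4 arrays labelled as lacking ApoE and of 19937 to 21510 on the other 4. In the aortic cells its log2 value was 8.29 and 6.69 in double null and 7.27 and 7.17 in ApoE null cells, above the array medians of 4.45 to 4.50 on all 4 arrays, although the labels give no ApoE in any of them. The brighter probe set of Rcan1, the gene of Dscr-1, was not lower on the liver arrays labelled as lacking Dscr-1. It had 491.5 and 209.5 in double null livers against 496.5 and 177 in ApoE null livers, and 255 and 353 in Dscr-1 null livers against 210.0 and 134 in WT livers. In the aortic cells it was at 10.09 and 10.26 in double null and at 9.99 and 9.92 in ApoE null cells on the log2 scale. The other set had 44.7 and 21.8 in double null, 41.0 and 2.7 in ApoE null, 7.5 and 5.1 in Dscr-1 null and 19.6 and 46.9 in WT livers. Where these probe sets lie against the deleted part is unknown here, and the labels for Dscr-1 have no check in these data. Hprt, a purine salvage gene looked at after its values were seen, had 884 and 913 in double null livers, 1019 and 933 in ApoE null livers, 820 and 65.9 on the 2 arrays labelled Dscr-1 null and 46.9 and 54.8 in WT livers. The arrays labelled Dscr-1 null thus differ from each other in it, and whether those labels are right was not tested. In the aortic cells Hprt was at 10.68 and 10.63 on the log2 scale in double null and at 6.90 and 6.73 in ApoE null cells. Among the liver arrays ApoE null replicate 1 was the least like the rest, with a mean correlation of 0.839 over probe sets against 0.875 to 0.885 for the other 7, and among the aortic arrays it was double null replicate 2 (0.985 against 0.991 to 0.992). The hepatocyte markers fit the liver label, since 7 of 8 exceeded the array median on every liver array, the brightest being Serpina1c and Alb. The endothelial markers exceeded it in 7 of 7 cases on every aortic array, the brightest being Cdh5 and Erg. Of 8 smooth muscle and fibroblast markers 6 also exceeded the array median on every aortic array. The brightest of these, Dcn, was above Cdh5 on each of them.

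The 10 genes lie in a few clusters of the genome, given here in the RefSeq annotation of GRCm38.p6. Saa3 (chr7:46711998-46719615), Saa1 (chr7:46740497-46743181) and Saa2 (chr7:46751833-46754313) are neighbours on chromosome 7, and Hpx lies further along the same chromosome (chr7:105591611-105600116). Orm1 (chr4:63344556-63348163) and Orm2 (chr4:63362449-63365877) adjoin on chromosome 4, and Crp (chr1:172698056-172699966) and Apcs (chr1:172893961-172895054) are close to each other on chromosome 1. Lcn2 is at chr2:32384637-32387739 and Hp at chr8:109575128-109579172.

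Promoter windows of the genes that differed most between the arrays are printed because the inducible acute phase genes are known for sites of these factors close to the start. Each window holds the 250 bases before the start given in the RefSeq promoter table, read 5′ to 3′ on the gene's own strand in GRCm38.p6. For Lcn2, Saa2 and Orm2 that start is the outer end of the annotated gene, whereas for Saa3 and Saa1 it lies 3939 and 201 bases inside it, so the window of Saa3 is within the annotated gene and that of Saa1 overlaps it. The windows are chr7:46715677-46715926 on the minus strand for Saa3, chr2:32387740-32387989 on the minus strand for Lcn2, chr7:46742981-46743230 on the minus strand for Saa1, chr7:46751583-46751832 on the plus strand for Saa2 and chr4:63362199-63362448 on the plus strand for Orm2. Capitals mark matches, on either strand, to 3 spelled motifs: GGGNNNNNCC for NF-kB, TTNNGNAA for C/EBP and TTCNNNGAA for STAT, where N is any base.
Saa3: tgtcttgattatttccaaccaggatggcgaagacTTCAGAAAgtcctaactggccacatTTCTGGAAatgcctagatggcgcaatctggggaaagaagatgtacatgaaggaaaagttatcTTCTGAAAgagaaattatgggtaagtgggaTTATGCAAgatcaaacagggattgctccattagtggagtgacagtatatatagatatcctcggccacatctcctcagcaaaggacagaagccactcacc
Lcn2: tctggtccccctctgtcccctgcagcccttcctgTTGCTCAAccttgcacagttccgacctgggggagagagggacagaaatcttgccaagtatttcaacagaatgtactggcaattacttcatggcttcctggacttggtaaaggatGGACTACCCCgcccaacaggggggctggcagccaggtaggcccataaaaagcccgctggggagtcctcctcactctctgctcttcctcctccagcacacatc
Saa1: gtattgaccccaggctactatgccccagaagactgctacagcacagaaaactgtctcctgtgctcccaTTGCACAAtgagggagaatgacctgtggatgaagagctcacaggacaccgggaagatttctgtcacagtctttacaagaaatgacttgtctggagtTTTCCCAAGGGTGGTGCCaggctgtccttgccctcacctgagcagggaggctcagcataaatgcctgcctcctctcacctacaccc
Saa2: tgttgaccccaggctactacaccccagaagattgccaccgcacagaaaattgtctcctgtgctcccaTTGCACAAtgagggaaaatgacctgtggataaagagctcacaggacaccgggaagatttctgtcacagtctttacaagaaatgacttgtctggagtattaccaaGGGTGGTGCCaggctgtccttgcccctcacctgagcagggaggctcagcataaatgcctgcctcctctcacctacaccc
Orm2: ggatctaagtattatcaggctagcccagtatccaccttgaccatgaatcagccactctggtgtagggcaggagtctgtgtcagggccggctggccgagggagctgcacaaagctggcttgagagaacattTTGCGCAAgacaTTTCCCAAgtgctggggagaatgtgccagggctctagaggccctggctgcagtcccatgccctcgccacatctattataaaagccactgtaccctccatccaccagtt
The NF-kB letters occur in 45.4% of 27025 mouse promoter windows of this length, the C/EBP letters in 36.9% and the STAT letters in 7.18%. Saa1 and Saa2 share the NF-kB match GGGTGGTGCC and the C/EBP match TTGCACAA, and 197 of 249 aligned bases of their windows are identical. In the Saa1 window a further C/EBP match, TTTCCCAA, adjoins the NF-kB match directly. Lcn2 holds 1 match of each of these kinds, GGACTACCCC and TTGCTCAA. Saa3 holds 4 C/EBP matches, among them TTATGCAA and TTCTGGAA, and none to the NF-kB letters, and Orm2 holds TTGCGCAA and TTTCCCAA. A window was given for 8 of 10 members, not for Hp and Orm1, and of these 8 windows the C/EBP letters occur in 7, the NF-kB letters in 4 and the STAT letters in 1, that of Apcs. A match is a description of the letters and says nothing of binding.

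Saa3 and Lcn2 separated the livers by ApoE. Saa3 encodes an inducible serum amyloid A, made by macrophages and adipocytes as well as hepatocytes. Its signal, on the linear scale of the arrays, was 1452 and 1397 in double null livers, 1443 and 1275 in ApoE null livers, 147 and 407.5 in Dscr-1 null livers and 131 and 203 in WT livers. All 4 arrays without ApoE lay above all 4 arrays with it, and the lowest of the first was 3.13 times the highest of the second. The mean signal was 8.52-fold that of WT in double null livers, 8.13-fold in ApoE null livers and 1.66-fold in Dscr-1 null livers. On the log2 scale, after 16 was added to each signal, the difference from WT was 3.0 in double null livers (standard error 0.50, 95% interval 1.84 to 4.17). It was 2.93 in ApoE null livers (standard error 0.50, interval 1.77 to 4.10) and 0.55 in Dscr-1 null livers (interval −0.62 to 1.71), where leaving out 1 array at a time gave −0.14 to 1.24.

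Lcn2 encodes lipocalin 2, which binds bacterial siderophores and is stored in neutrophil granules as well as secreted by hepatocytes. Its signal was 812 and 459 in double null livers, 533 and 309 in ApoE null livers, 66.9 and 228.5 in Dscr-1 null livers and 6.5 and 53.8 in WT livers. The 4 arrays without ApoE again lay above the other 4, though by a narrower gap of 1.35 times, and the Dscr-1 null arrays lay between those of WT and ApoE null mice. WT replicate 1, at 6.5, was below the median of its array, 32.2, so the size of a difference from WT depends on the offset. With 16 added, the log2 difference from WT was 3.98 in double null livers (standard error 0.72, interval 2.33 to 5.64), 3.41 in ApoE null livers (interval 1.76 to 5.07) and 1.85 in Dscr-1 null livers (interval 0.19 to 3.50). With 64 added the first was 2.89 and with 1 added it was 4.91, and in Dscr-1 null livers the values were 1.10 and 2.62. Leaving out 1 array at a time gave 1.03 to 2.66 in Dscr-1 null livers and 3.17 to 4.80 in double null livers.

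**Figure D1:**
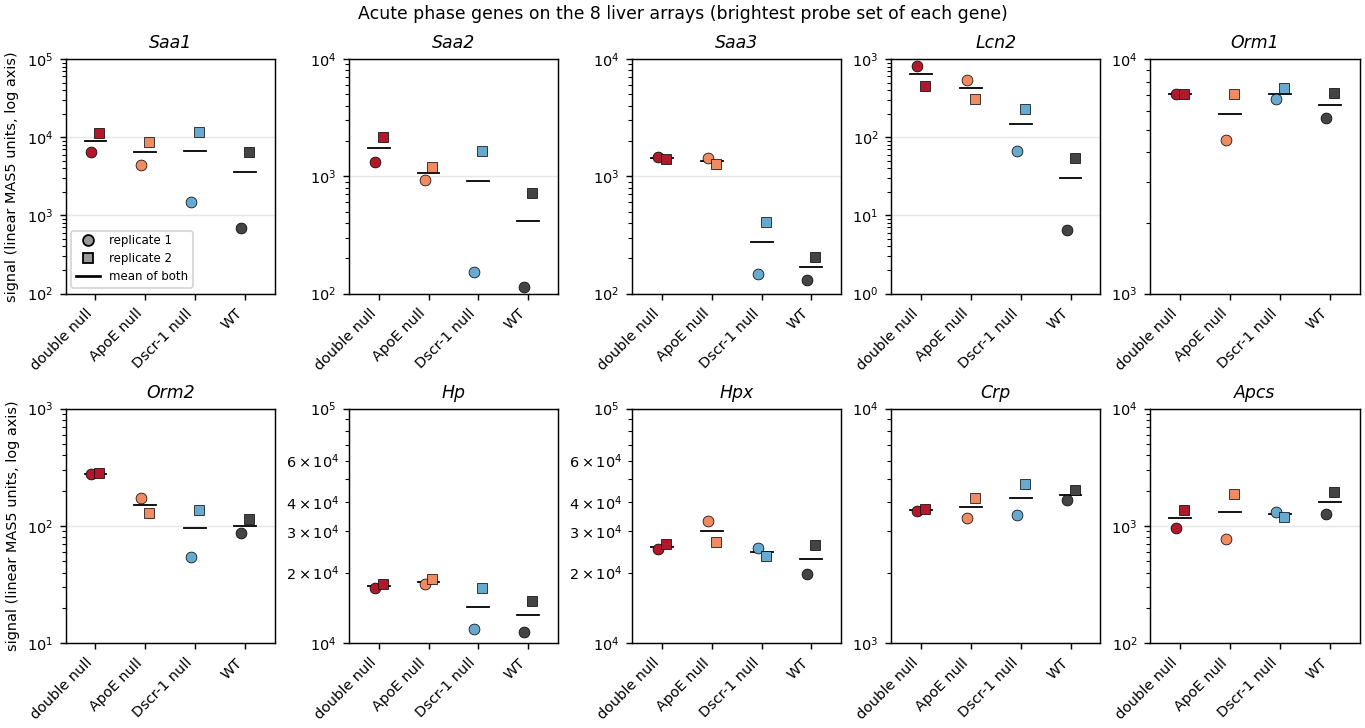
Signal of each acute phase gene (brightest probe set) on the 8 liver arrays, on a log axis in linear MAS5 units, with circles for replicate 1, squares for replicate 2 and bars for the mean of both. Saa3 is at 1275 to 1452 on the arrays of double null and ApoE null mice and at 131 to 407.5 on those of Dscr-1 null and WT mice, while Saa1 and Saa2 spread widely within Dscr-1 null and WT mice.

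None of these differences passed the test over all genes. In limma with Benjamini-Hochberg adjustment, 0 of the 10 members had an adjusted p under 0.05 in double null against WT livers, where 0.0135% of 14855 genes did. Saa3 and Lcn2 had the same adjusted p there, 0.659 (unadjusted p = 0.000363 and 0.000568), and one of 0.576 in ApoE null against WT livers. At an unadjusted p under 0.05, 3 of 10 members were higher in double null livers (Saa3, Lcn2 and Orm2), against 3.51% of all genes, and 2 of 10 in ApoE null livers (Saa3 and Lcn2), against 3.5%. In Dscr-1 null livers 1 of 10 was (Lcn2, adjusted p = 0.982), against 1.94%. Saa3 passed where 64 was added before the logarithm (adjusted p = 0.000271 in double null and 0.000457 in ApoE null livers) and where the variance was fitted with a trend and robustly together (4.23e-09 and 1.02e-08). Lcn2 passed with 64 added only (0.000476 and 0.00848).

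The pooled comparison set the 4 arrays without ApoE against the 4 with it, so that the effect of ApoE loss was averaged over both Dscr-1 states. The log2 difference was 2.69 for Saa3 (standard error 0.36, 95% interval 1.87 to 3.52, adjusted p = 0.535 from limma) and 2.78 for Lcn2 (standard error 0.51, interval 1.61 to 3.95, adjusted p = 0.535). Of 10 members 2, Saa3 and Lcn2, had no overlap between the 4 arrays without ApoE and the 4 with it, where 2.23% of all genes were higher without overlap. The difference was above 0 in 7 of 10, against 50.5% of all genes, and 0 were lower without overlap, against 1.64%. At an unadjusted p under 0.05, 3 of 10 were higher (Saa3, Lcn2 and Orm2), against 3.97%. Of all genes, 0.00673% passed the threshold in this comparison, and 0 of the members did. Leaving out any 1 array left the Saa3 difference at 2.35 to 3.04 and that of Lcn2 at 2.37 to 3.18. With 64 added before the logarithm both passed (adjusted p = 1.30e-05 and 0.000586), and Saa3 also passed with a variance trend and a robust fit together (4.99e-12).

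Saa1 and Saa2, the main serum amyloid A proteins of the mouse and carried on high-density lipoprotein, varied widely between the 2 arrays of Dscr-1 null and of WT mice. The brighter Saa1 probe set had 6443 and 11282 in double null livers, 4386 and 8658 in ApoE null livers, 1495 and 11724 in Dscr-1 null livers and 687 and 6559 in WT livers. Every genotype therefore overlapped every other, and the highest and the second lowest values of the 8 both came from Dscr-1 null mice. Saa2 had 1331 and 2170 in double null livers, 927 and 1205 in ApoE null livers, 154 and 1659 in Dscr-1 null livers and 113 and 717 in WT livers. Its values in double null and ApoE null livers lay above both WT values, whereas one Dscr-1 null value was the second lowest of the 8 and the other the second highest.

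The other Saa1 probe set has the suffix of sets that can bind several transcripts, and its accession is paired with Saa2 in RefSeq, so these near-identical genes cannot be told apart by it. It had 6423 and 9477 in double null livers, 4639 and 6416 in ApoE null livers, 1374 and 8593 in Dscr-1 null livers and 516 and 4517 in WT livers. Across the 8 arrays it followed both named sets closely, with a Pearson r of 0.99 with the brighter Saa1 set and of 0.98 with Saa2. The Saa2 set has the same accession and also a suffix of sets that can bind other transcripts. The Saa2 values are therefore not tied to Saa2 alone, and the agreement of that set with the other Saa1 set is not independent. The log2 difference between double null and WT livers was 1.99 by the brighter Saa1 set (standard error 1.20, interval −0.78 to 4.76), 2.33 by the other (interval −0.20 to 4.86) and 2.48 for Saa2 (interval −0.10 to 5.06). Without WT replicate 1 these differences were 0.38 for the brighter Saa1 set and 1.23 for Saa2, and without WT replicate 2 they were 3.6 and 3.73. Without WT replicate 1 the Saa1 difference between ApoE null and WT livers was −0.09 in place of 1.52, so its direction rests on that array.

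The spread of Saa1 and Saa2 was larger between the arrays that carry ApoE than between those without it. Between the 2 double null arrays Saa1 differed by 0.81 on the log2 scale and between the 2 ApoE null arrays by 0.98. Between the 2 Dscr-1 null arrays it differed by 2.96 and between the 2 WT arrays by 3.23, both larger than for 100% of 346 genes of like brightness. The difference between the 2 double null arrays was also larger than for 97.69% of these genes and that between the 2 ApoE null arrays than for 93.93%. Saa2 differed by 0.70 between the double null, 0.37 between the ApoE null, 3.30 between the Dscr-1 null and 2.51 between the WT arrays. Of 1782 genes of like brightness, 95.74%, 55.39%, 99.94% and 99.94% differed by less in the same order of genotypes. For Saa1 and Saa2 replicate 2 was the higher in every genotype. The same held for Orm1, Hp and Crp, but not for Saa3, Lcn2, Orm2, Hpx or Apcs. The cause of this was not tested. In the linear signal, the highest of the 4 arrays without ApoE was 2.57 times the lowest for Saa1 and 2.34 times for Saa2, against 17.1 and 14.7 times among the 4 arrays with it. Saa3 spread less than Saa1 and Saa2, with a difference of replicate 2 minus replicate 1 of −0.06 in double null, −0.18 in ApoE null, 1.38 in Dscr-1 null and 0.57 in WT livers. Of 2207 genes of like brightness, 14.27%, 28.91%, 99.09% and 84.5% differed by less in the same order. For Lcn2 90.76%, 79.99%, 99.08% and 99.19% of 4458 such genes did.

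**Figure D2:**
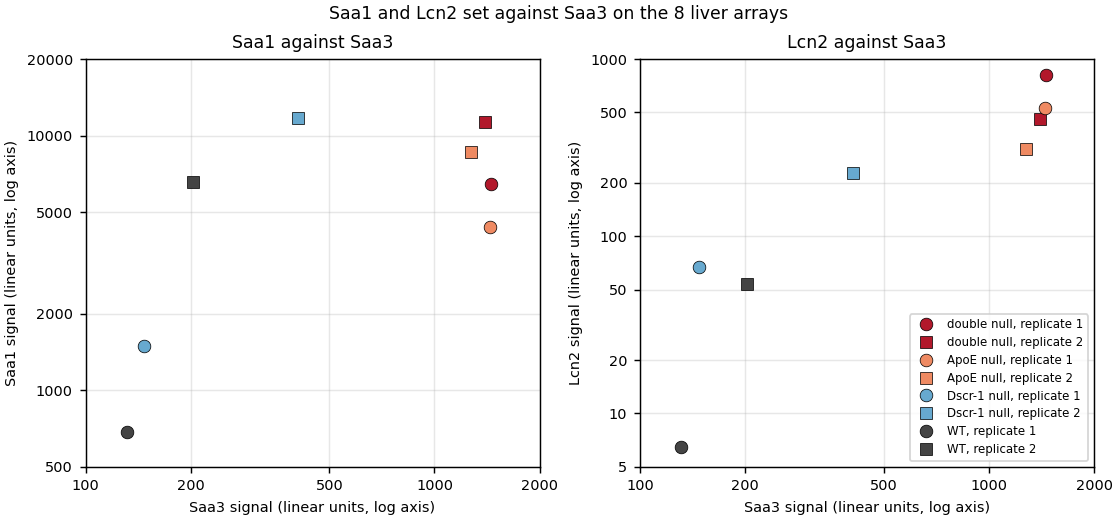
Saa1 (left) and Lcn2 (right) against Saa3 on the 8 liver arrays, all as linear signals on log axes, with colours for genotypes and circles and squares for replicates 1 and 2. WT replicate 2 has 6559 for Saa1 (brighter set), as much as arrays without ApoE, but 203 for Saa3 and 53.8 for Lcn2.

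Dscr-1 null replicate 2 and, by the brighter Saa1 set only, WT replicate 2 had high Saa1 without high Saa3. By that set their Saa1 signals of 11724 and 6559 lay above or within the range of the arrays without ApoE, 4386 to 11282. Their Saa3 signals of 407.5 and 203 lay below that of every array without ApoE. By the other Saa1 set WT replicate 2, at 4517, lay below every array without ApoE, of which the lowest had 4639. Its Saa2 signal of 717 also lay below them all, the lowest being 927. Dscr-1 null replicate 2, at 8593 by the other Saa1 set and 1659 for Saa2, lay within the range of those arrays. Over the 8 arrays Saa3 and Lcn2 had a Pearson r of 0.94 (Spearman 0.98). The brighter Saa1 set had one of 0.67 with Saa3 (Spearman 0.36) and of 0.97 with Saa2 (Spearman 0.86). With Saa3 the other Saa1 set had a Pearson r of 0.75 (Spearman 0.69) and Saa2 one of 0.80 (Spearman 0.69). The 8 arrays share the 4 genotypes and the groups lie apart for Saa3, so these values describe the arrays and carry no test.

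The 5 genes whose log2 values followed each of Saa3, Lcn2 and Saa1 most closely over the 8 liver arrays were picked by their Pearson r. For Saa3 they were Msx1 and Fance (r = 0.98 each), Nipal2 (0.98), 1700022A22Rik and 4930505M18Rik (0.94 each). Nipal2 had 101 and 108 in double null livers, 82.2 and 74.0 in ApoE null livers, 19.2 and 34.0 in Dscr-1 null livers and 15.9 and 30.5 in WT livers. For Lcn2 they were 4930512H18Rik, Wdfy2, Ifi209, Pdp2 and Ankrd12 (r = 0.95 to 0.97), of which Ifi209, of an interferon-inducible family, had 187 and 188.0 in double null livers and 30.3 and 71.2 in WT livers. For Saa1 they were Tpx2, Saa2, 9430091E24Rik, Stambp and Marf1 (r = 0.93 to 0.98), and Saa2 was the one member among all these genes.

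The remaining members, Orm1, Orm2, Hp, Hpx, Crp and Apcs, differed less from WT in each mutant than Saa3 and Lcn2 did. Between double null and ApoE null livers, however, Orm2 differed more than Saa3 and Lcn2. Orm2 encodes orosomucoid 2, a carrier of basic drugs and lipids, and had 275 and 282 in double null livers, 172 and 128 in ApoE null livers, 54.1 and 137.5 in Dscr-1 null livers and 87.1 and 114 in WT livers. Double null livers were the highest for it and overlapped no other genotype. The log2 difference was 1.35 from WT (interval 0.29 to 2.40, adjusted p = 0.710), 1.51 from Dscr-1 null (interval 0.45 to 2.56, adjusted p = 0.752) and 0.84 from ApoE null livers (interval −0.22 to 1.90), in limma. Orm1, its neighbour and close relative, had 7086 and 7101 in double null livers, 4505 and 7106 in ApoE null livers, 6762 and 7493 in Dscr-1 null livers and 5617 and 7145 in WT livers. Every other genotype overlapped the double null range for Orm1, and its log2 difference in double null against WT livers was 0.16 (interval −0.72 to 1.05).

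Hp encodes haptoglobin, which binds free haemoglobin, and Hpx hemopexin, which binds free heme. Hp had 17148 and 17922 in double null livers, 17791 and 18793 in ApoE null livers, 11439 and 17212 in Dscr-1 null livers and 11163 and 15121 in WT livers. Only Dscr-1 null replicate 2 kept the arrays with ApoE from lying below all those without it, and it exceeded double null replicate 1 by a small margin. Hpx had 25105 and 26505 in double null livers, 33102 and 27107 in ApoE null livers, 25437 and 23623 in Dscr-1 null livers and 19678 and 26095 in WT livers. Its highest signal was on ApoE null replicate 1, the array least like the others. The log2 differences from WT were 0.43 for Hp and 0.19 for Hpx in double null livers and 0.49 and 0.40 in ApoE null livers, each with an interval that spans 0.

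Crp and Apcs encode the pentraxins, C-reactive protein and serum amyloid P, of which serum amyloid P is the main acute phase pentraxin of the mouse. Crp had 3656 and 3724 in double null livers, 3426 and 4163 in ApoE null livers, 3522 and 4783 in Dscr-1 null livers and 4092 and 4508 in WT livers. Apcs had 961 and 1376 in double null livers, 773 and 1875 in ApoE null livers, 1314 and 1197 in Dscr-1 null livers and 1273 and 1951 in WT livers. In double null livers both Crp values lay below both WT values, and the Apcs values overlapped. Their log2 differences from WT there were −0.22 for Crp (interval −1.05 to 0.61) and −0.45 for Apcs (interval −1.61 to 0.71).

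**Figure D3:**
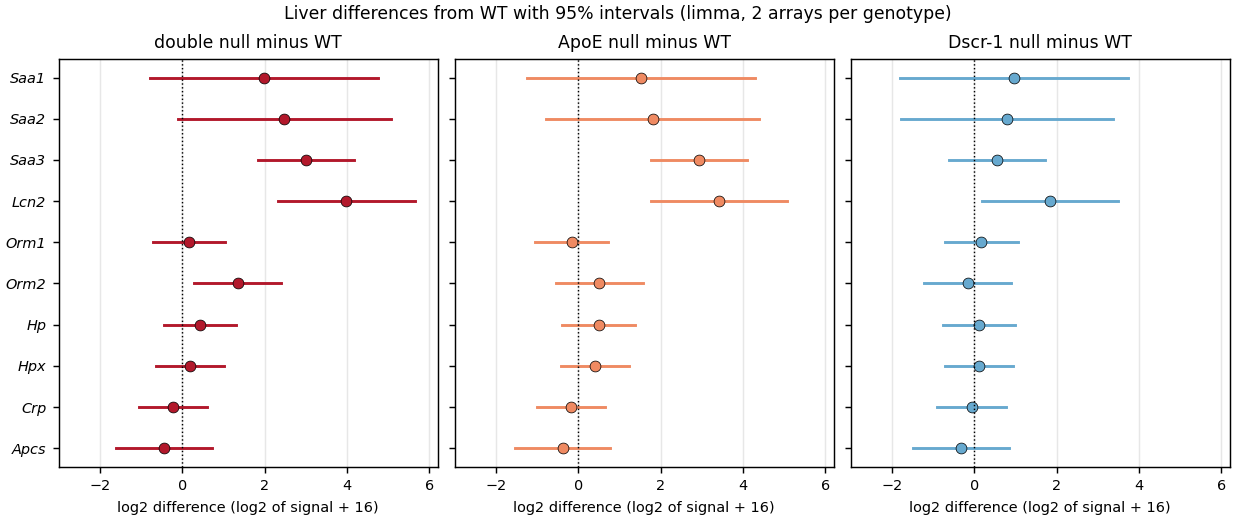
Log2 difference from WT of each acute phase gene in double null (left), ApoE null (middle) and Dscr-1 null (right) livers, with dots for the estimate and lines for the 95% interval from limma on log2 of signal plus 16. The intervals of Saa3 and Lcn2 lie above 0 in double null and ApoE null livers, whereas those of Saa1 and Saa2 are wide and include 0 in all 3 mutants.

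Of the 10 members, 8 had a positive difference from WT in double null livers, where 50.8% of all genes did. In ApoE null livers 7 had one, against 49.6% of all genes, and in Dscr-1 null livers 7 did, against 48.8%. The median log2 difference of the members was 0.89, 0.50 and 0.14 in the same order of mutants, against 0.01, −0.00 and −0.01 over all 14855 genes. The 3 comparisons share the WT arrays. In double null livers 5 members (Saa2, Saa3, Lcn2, Orm2 and Hp) were higher without overlap with WT, where 19.6% of all genes were, and 1 (Crp) was lower, where 18.6% were. In ApoE null livers 6 were higher without overlap (Hpx as well as those 5), where 17.3% of all genes were, and 0 lower, where 16.7% were. In Dscr-1 null livers Lcn2 alone of the 10 was higher without overlap, where 16.3% of all genes were, and 0 were lower, where 16.9% were. After adjustment 0 of 10 passed in ApoE null livers, against 0.0135% of all genes, and 0 of 10 in Dscr-1 null livers, against 0.00673%.

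Loss of Dscr-1 on top of ApoE loss was compared between double null and ApoE null livers, where 6 of 10 members were higher, against 50.3% of all genes, and 0 passed in limma, as 0.0% of all genes did. At an unadjusted p under 0.05 none of the 10 members was called higher or lower, against 2.85% and 2.48% of all genes. Saa2 and Orm2 were higher without overlap, where 16.6% of all genes were, and Hpx was lower, where 15.7% were. Saa3 differed by 0.07 on the log2 scale (interval −1.10 to 1.23) and Lcn2 by 0.57 (interval −1.09 to 2.23), which was 0.17 to 0.97 with 1 array left out. A difference of 1 in either direction is inside both intervals, and the sign for Saa3 turned to −0.02 without ApoE null replicate 2.

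Between double null and Dscr-1 null livers, which differ by ApoE alone in their labels, the log2 difference was 2.45 for Saa3 (standard error 0.50, interval 1.29 to 3.62, adjusted p = 0.735) and 2.14 for Lcn2 (interval 0.48 to 3.80, adjusted p = 0.804), in limma. Of the members 3 (Saa3, Lcn2 and Orm2) had an unadjusted p under 0.05, against 2.85% of all genes higher, and 0 passed after adjustment, against 0.00673%. A positive difference was found in 7 of 10, against 51.3% of all genes, and the same 3 were higher without overlap, against 17.8%, while 0 were lower, against 16.3%. Saa3 passed with 64 added (adjusted p = 0.0090) and with a variance trend and a robust fit together (1.82e-06). Leaving out 1 array at a time gave 1.36 to 2.92 for Lcn2, 0.94 to 2.07 for Orm2 and 0.03 to 3.34 for Saa2. The interaction, which asks whether the 2 losses add on the log2 scale, was −0.48 for Saa3 (interval −2.13 to 1.17), −1.27 for Lcn2 (interval −3.62 to 1.07) and 1.0 for Orm2 (interval −0.49 to 2.49). For Lcn2 it was −0.58 with 64 added, −2.03 with 1 added and −2.09 to −0.46 with 1 array left out. It was above 0 in 4 of 10 members, against 51.6% of all genes. In limma 0 of 10 passed, as 0.0% of all genes did, and none had an unadjusted p under 0.05, with 2.11% of all genes positive and 2.28% negative at that level.

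**Figure D4:**
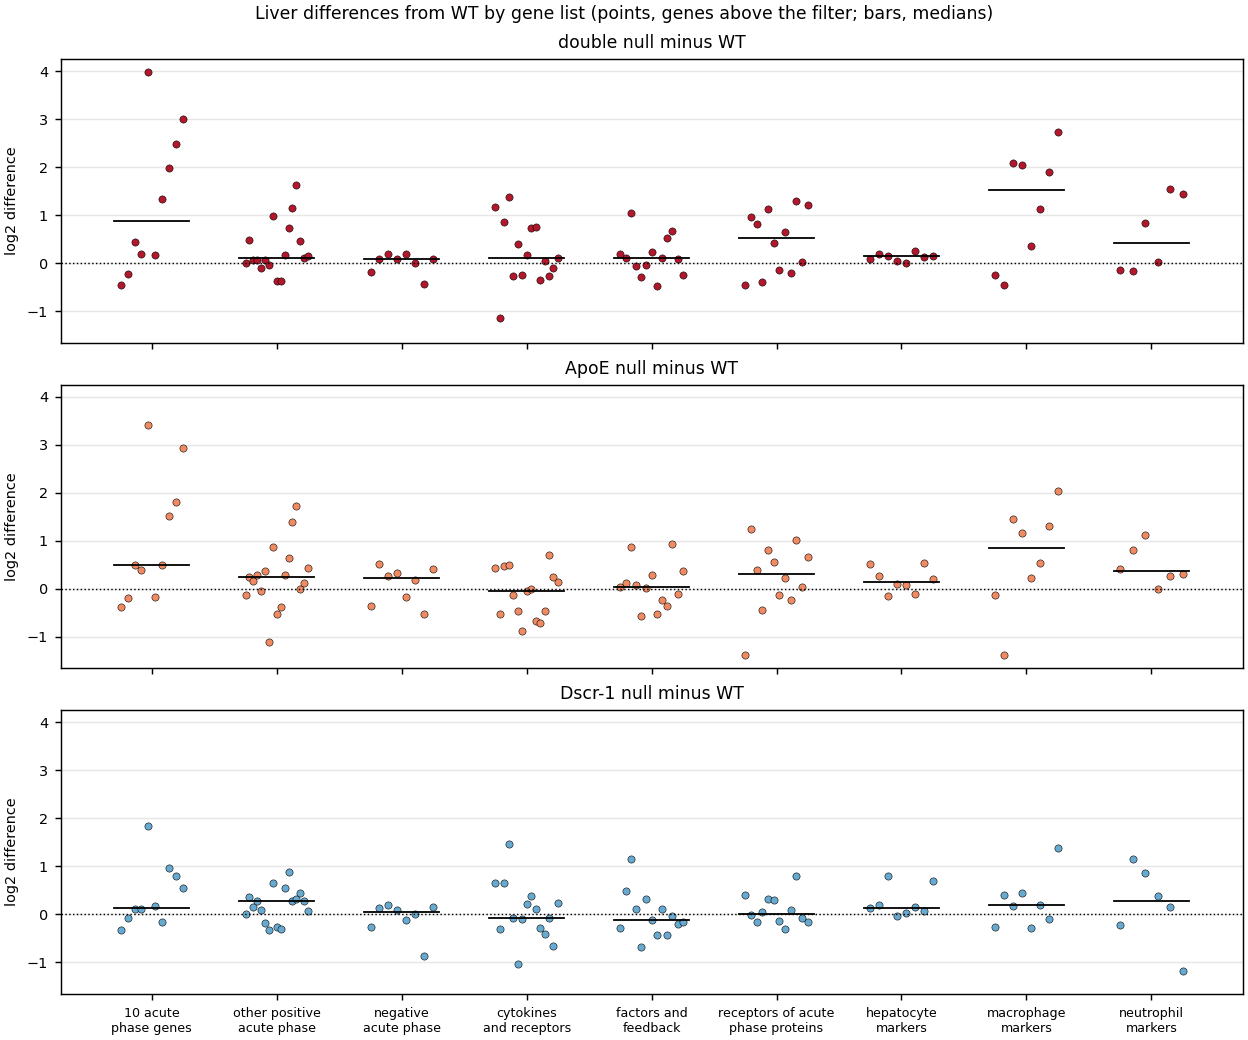
Log2 differences from WT in double null (top), ApoE null (middle) and Dscr-1 null (bottom) livers for the 10 acute phase genes and 8 further gene lists, with a point for each gene above the filter and a bar for the median of each list. Macrophage markers have a median of 1.52 in double null livers, while other positive acute phase genes lie near 0 with Mt2 highest at 1.63.

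In double null livers other genes of the acute phase response differed less from WT by their median than the members did. In Dscr-1 null livers the further positive acute phase genes had a median log2 difference of 0.28, against 0.14 for the members. Of 17 further positive acute phase genes above the filter, 12 had a positive difference in double null livers, with a median log2 difference of 0.11, and 0 passed in limma (2 higher at an unadjusted p under 0.05, where 3.51% of all genes were). Those 2 were Il1rn, the secreted antagonist of interleukin 1, at 0.97 (adjusted p = 0.771) and Mt2, a metallothionein, at 1.63 (adjusted p = 0.781). The Il1rn value is that of its brightest set. A further Il1rn set overlapped, with 21.4 and 63.2 in double null and 44.9 and 53.7 in WT livers. Another was higher, with 99.8 and 81.9 against 59.0 and 65.5. Mt2 had 307 and 249.5 in double null livers, 386 and 231 in ApoE null livers, 42.0 and 223 in Dscr-1 null livers and 73.4 and 84.0 in WT livers, so that Dscr-1 null replicate 2 again lay close to the arrays without ApoE. Mt1 was at 1.15 and Lrg1, a leucine-rich glycoprotein, at 0.73. Of 8 negative acute phase genes, 6 had a positive difference there, with a median of 0.09 and 0 at an unadjusted p under 0.05. Among them Serpina6, the corticosteroid-binding globulin, was at −0.44 (standard error 0.35) and had 2407 and 1975 in double null livers and 3163 and 2786 in WT livers. Apoa1 and Fetub were at 0.19 each and Ahsg at −0.18.

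Of 15 cytokine and receptor genes 9 had a positive difference in double null livers (median 0.11), 2 of them at an unadjusted p under 0.05, where 3.51% of all genes were higher. Il1r1, the receptor of interleukin 1, was at 1.38 (adjusted p = 0.689) and also at 1.46 in Dscr-1 null livers (adjusted p = 0.890), and Il1b was at 0.86 (adjusted p = 0.790). Il11, of the interleukin 6 family, was at 1.17, with 92.5 and 33.8 in double null livers and 26.2 and 9.2 in WT livers. Il1a was at −1.14 (adjusted p = 0.855 for both, in limma), with 17.4 and 6.2 in double null livers and 35.4 and 53.9 in WT livers, signals close to or below the array medians. Il6, looked at after its values were seen, had 41.1 and 33.0 in double null livers and 34.2 and 63.2 in WT livers, beside array medians of 32.2 to 44.7. Of 13 transcription factors and feedback genes, 8 were higher (median 0.11) and 0 had an unadjusted p under 0.05. Socs3 encodes a target and inhibitor of STAT3. By its brightest set it was at 0.66 in double null livers and 0.94 in ApoE null livers (standard error 0.43 each). That set had 133 and 84.1 in double null livers, 154 and 111 in ApoE null livers, 79.6 and 43.1 in Dscr-1 null livers and 48.9 and 75.3 in WT livers. A further set had 137 and 75.0 in double null and 82.7 and 52.2 in WT livers. Another went the other way in double null livers, with 25.7 and 57.3 against 69.4 and 59.1 in WT livers, and had 156 and 74.7 in ApoE null livers. Cebpd was at 1.05, with a WT range of 4.7 to 119. Nr3c1, the glucocorticoid receptor, was at −0.47 by its brightest probe set, with 472 and 462 in double null livers and 606 and 699.5 in WT livers, and at −1.48 to 1.27 by the 4 other sets above the filter. Socs1 was at 0.53, with 67.8 and 44.5 in double null livers and 33.6 and 32.8 in WT livers. Of 12 receptors of acute phase proteins 8 were higher (median 0.54), 2 at an unadjusted p under 0.05, where 3.51% of all genes were. They were Fcgr3, a receptor that pentraxins engage, at 1.13 (adjusted p = 0.821) and Slc22a17, the lipocalin 2 receptor, at 1.29 (adjusted p = 0.821), the last with 68.1 and 9.2 in WT livers. In the same list Tlr4, reported to respond to serum amyloid A, was at 1.21 and Fcgr1 at 0.83. The Tlr4 value is that of its brightest set, with 76.5 and 53.2 in double null and 35.9 and 6.9 in WT livers. Its further sets overlapped between these genotypes, one with 30.0 and 61.5 against 34.1 and 1.6, another with 2.6 and 5.2 against 37.2 and 2.0.

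The summed signal of macrophage markers was higher on the arrays without ApoE, as Saa3 and Lcn2 were. Of 8 markers 6 exceeded the array median on every liver array, and the summed signal of all 8 was 11205 to 15741 in double null livers, 7093 to 11126 in ApoE null livers, 4638 to 5598 in Dscr-1 null livers and 3903 to 5628 in WT livers. Most of that sum came from Cd5l and Csf1r. The brightest was Cd5l, a scavenger receptor family protein of macrophages, which had 7666 and 5471 in double null livers, 5413 and 3208 in ApoE null livers, 1645 and 1745 in Dscr-1 null livers and 1114 and 2020 in WT livers. Csf1r, the receptor of colony-stimulating factor 1, had 4456 and 3425 in double null livers, 3259 and 2027 in ApoE null livers, 2514 and 1662.5 in Dscr-1 null livers and 1540.3 and 2033 in WT livers, so that ApoE null livers overlapped those of WT and Dscr-1 null mice. At an unadjusted p under 0.05, 5 of the 8 markers were higher in double null livers against WT, where 3.51% of all genes were, with a median log2 difference of 1.52 over all 8. Of the 8, 6 had a positive difference and 2, Adgre1 and Cd163, a negative one. These 2 and Clec4f, a lectin of Kupffer cells, were chosen after their values were seen. Adgre1, which encodes F4/80, had 163 and 194 in double null livers, 197.5 and 194 in ApoE null livers, 152 and 205 in Dscr-1 null livers and 149 and 309 in WT livers. Cd163, the scavenger receptor for haptoglobin and haemoglobin, had 30.7 and 64.5 in double null livers, 5.1 and 32.8 in ApoE null livers, 54.7 and 157 in Dscr-1 null livers and 73.3 and 62.9 in WT livers. Clec4f had 1063 and 748.0 in double null livers, 1034 and 650.0 in ApoE null livers, 704 and 458.5 in Dscr-1 null livers and 563 and 860 in WT livers. The 4 arrays without ApoE thus overlapped the other 4 in each of these 3 markers. The summed signal of 6 neutrophil markers was 455 to 462 in double null livers, 236 to 443 in ApoE null livers, 280.1 to 280.4 in Dscr-1 null livers and 210 to 231 in WT livers, and 1 of the 6 exceeded the array median on every array. S100a8, the brightest of them, had 169 and 180.5 in double null livers, 91.8 and 40.2 in ApoE null livers, 90.7 and 33.6 in Dscr-1 null livers and 75.8 and 29.9 in WT livers. Ngp, the next brightest, had 40.2 and 72.6 in double null livers, 74.1 and 37.0 in ApoE null livers, 61.9 and 91.0 in Dscr-1 null livers and 39.8 and 70.9 in WT livers, so that all genotypes overlapped. None of the neutrophil or macrophage markers was below the array median on all 8 arrays. The summed signal of 2 adipocyte markers was 49.5 to 69.4 in double null livers, 10.4 to 19.4 in ApoE null livers, 24.2 to 40.6 in Dscr-1 null livers and 4.4 to 17.3 in WT livers. Of these Adipoq, the one above the filter on low values, had 65.4 and 30.9 in double null livers, 2.8 and 14.3 in ApoE null livers, 16.1 and 36.1 in Dscr-1 null livers and 1.8 and 3.3 in WT livers. The hepatocyte markers summed to 156045 to 157419 in double null livers, 154644 to 222003 in ApoE null livers, 156732 to 156786 in Dscr-1 null livers and 138183 to 153920 in WT livers. The part of these other cells in the Saa3 and Lcn2 signals was not tested.

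In the cultured aortic endothelial cells most members were at or below the level of a typical probe set. Values there are log2 as deposited, with array medians of 4.45 to 4.50, and are not comparable with the liver signals. Saa1, Saa2, Orm1, Orm2, Hp, Hpx and Crp lay below the array median on all 4 arrays, at 2.40 to 4.43. Apcs lay above it on all 4, at 4.81 to 5.31, and 3 of 10 members, Saa3, Lcn2 and Apcs, passed the filter on low values.

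Lcn2 and Saa3 were high on 1 of the 4 aortic arrays. Lcn2 had 7.68 and 12.77 in double null cells and 7.13 and 7.40 in ApoE null cells. Saa3 had 4.52 and 7.03 in double null cells and 4.38 and 4.66 in ApoE null cells. The high value of each came from the same array, double null replicate 2, while double null replicate 1 lay close to the ApoE null arrays. Lcn2 alone of 3 was higher without overlap, as 16.8% of all 11650 genes tested were, and 0 were lower, against 14.3%, while all 3 had a positive difference, against 47.9%. The log2 difference was 2.96 for Lcn2 (standard error 1.63, interval −1.26 to 7.18), 1.25 for Saa3 (standard error 0.82, interval −0.86 to 3.37) and 0.18 for Apcs (interval −0.35 to 0.71). Of these 3 members 0 passed in limma, each with an adjusted p of 1, and 0 had an unadjusted p under 0.05, while 0.0172% of all genes passed and 2.68% were higher at an unadjusted p under 0.05.

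The source names place the arrays of one replicate number together, so the difference was also taken between same-numbered arrays. For replicates 1 it was 0.55 for Lcn2 and 0.14 for Saa3, and for replicates 2 it was 5.37 and 2.36. In the linear scale Lcn2 was 41.4-fold and Saa3 5.15-fold higher in double null than in ApoE null cells in replicates 2, and 1.46-fold and 1.11-fold in replicates 1. Lcn2 ranked 3 of 11650 genes in replicates 2 and 353 in replicates 1. Without double null replicate 2 the Lcn2 difference was 0.42 and that of Saa3 −0.00. Without double null replicate 1 they were 5.51 and 2.51, and both then passed (adjusted p = 4.41e-22 and 1.96e-12), with 1966 genes past the threshold, in a fit where the lone array is assumed to vary like the ApoE null pair. With the replicate number as a block neither passed (adjusted p = 0.792 each, in limma), and 0 genes did in place of 2.

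**Figure D5:**
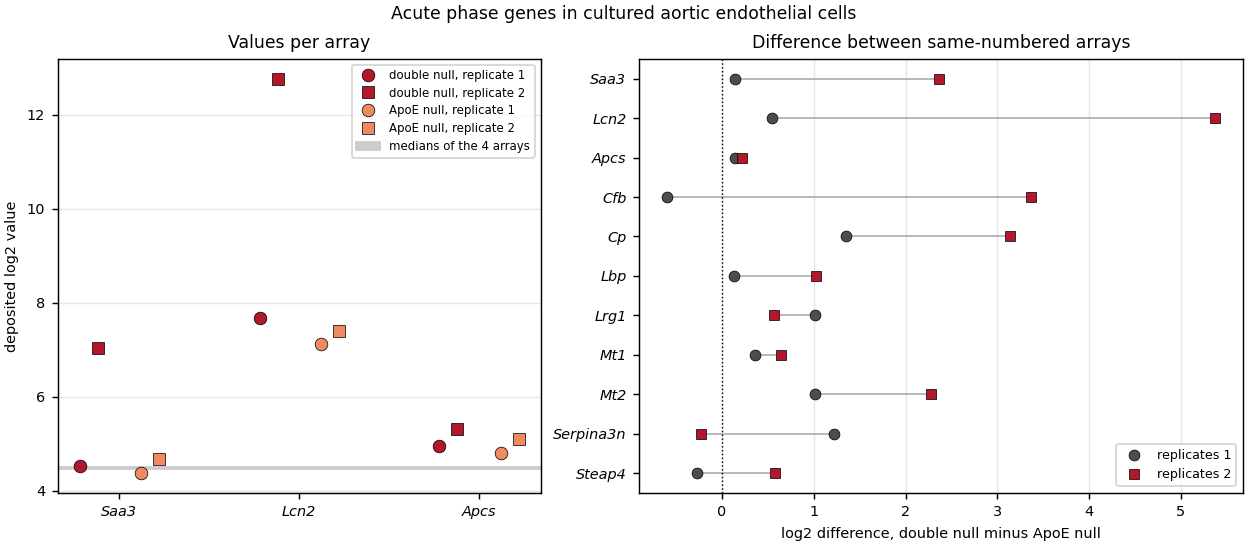
Left, deposited log2 values of Saa3, Lcn2 and Apcs on the 4 arrays of cultured aortic endothelial cells, with a grey band for the array medians, and right, the log2 difference between double null and ApoE null cells of the same replicate number for these and 8 further acute phase genes. Lcn2 is at 12.77 and Saa3 at 7.03 on double null replicate 2 alone, and Cp and Mt2 differ by 1 or more in both pairs.

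Some other genes of the acute phase lists were high on the same aortic array, and all but Mt2 were chosen after their values were seen. Cfb, complement factor B, had 4.06 and 8.40 in double null cells and 4.66 and 5.04 in ApoE null cells, a difference of −0.60 in replicates 1 and 3.37 in replicates 2. Il6 had 6.27 and 8.39 in double null cells and 5.25 and 4.63 in ApoE null cells, and Nfkbiz, a cofactor of NF-kB that Lcn2 expression needs in macrophages, had 8.43 and 10.27 in double null cells and 8.47 and 8.55 in ApoE null cells. Lif, a cytokine of the interleukin 6 family, had 6.61 and 8.12 in double null cells and 6.61 and 6.29 in ApoE null cells. These genes were thus high on double null replicate 2, and Cfb, Nfkbiz and Lif on that array alone. Their lists were not shifted as a whole. Of 10 cytokine and receptor genes 5 were higher and 5 lower in double null cells (median −0.0012). Of 12 transcription factors and feedback genes 7 were higher and 5 lower. Lifr (−0.37 and −0.94) and Il6st (−0.34 and −0.46), also chosen after their values were seen, were lower in replicates 1 and 2. Cp, ceruloplasmin, had 9.66 and 11.62 in double null cells and 8.31 and 8.48 in ApoE null cells, and Mt2 had 8.89 and 10.39 in double null cells and 7.88 and 8.12 in ApoE null cells, so that these 2 were higher in both pairs. Of 8 further positive acute phase genes above the filter 8 were higher in double null cells by their mean difference (median 0.69), against 47.9% of all genes. In limma 4 were higher at an unadjusted p under 0.05, against 2.68% of all genes, and 0 passed the threshold. Among these 8, Serpina3n, also chosen after its values were seen, and Lrg1 were highest on double null replicate 1. They had 8.05 and 6.60 there and 6.88 and 6.11 on double null replicate 2.

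Markers of other cells also differed between the aortic arrays. Of 8 macrophage markers 4 lay below the array median on all 4 arrays, and the summed linear values of the 8 were 539 to 1341 in double null cells and 268 to 288 in ApoE null cells. Lyz2 had 7.46 and 9.47 in double null cells and 5.33 and 5.48 in ApoE null cells, and Cd68 had 7.62 and 8.77 in double null cells and 7.11 and 6.80 in ApoE null cells, with the higher value again on double null replicate 2. The neutrophil markers lay below the array median on all 4 arrays in 6 of 6 cases. Smooth muscle and fibroblast markers summed to 10594 to 14483 in double null cells and 6689 to 6858 in ApoE null cells, and endothelial markers to 9923 to 11942 in double null cells and 11793 to 11930 in ApoE null cells. Of the smooth muscle and fibroblast markers Dcn had 12.79 and 13.09 in double null cells and 12.02 and 12.02 in ApoE null cells, and Acta2 had 11.99 and 10.05 in double null cells and 10.63 and 10.57 in ApoE null cells, so that Acta2 was high on double null replicate 1. The part of other cells in the Lcn2 and Saa3 values was not tested.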

How the data were processed

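RNA of 8 livers and 4 aortic endothelial cell cultures was measured on Affymetrix Mouse Genome arrays. The liver values are linear signal intensities, which the authors computed with the MAS5 method and brought to a common array average of 100. The trimmed mean, without 2% at each end, was 100.0004 to 100.0009. The aortic values are log2 signals as deposited. Transcriptome Analysis Console is credited for them in the processing notes of the submitters. The study's methods give the MAS5 average of 100 for the arrays without setting a tissue apart, but the aortic values, taken out of log2, had trimmed means of 161.3 to 169.1 and could not be matched to it. The tissues were therefore tested apart.

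Of 45101 probe sets 64 controls were set aside. Of the rest 34945 name 1 gene, 932 several and 9160 none, and 34741 were matched to current symbols by Entrez identifier. The brightest probe set stood for a gene. Probe sets above the array median on at least 2 arrays were tested, 32005 in the liver and 22927 in the aorta, on log2 of the signal plus 16 in the liver. Genotype means were fitted with limma 3.58.1 in R 4.3.3 (lmFit and eBayes), with Benjamini-Hochberg adjustment over all of these and a threshold of 0.05, leaving 4 residual degrees of freedom in the liver and 2 in the aorta. The fit was tested on simulated data. Python 3.11.15, pandas 2.3.3, SciPy 1.17.1 and matplotlib 3.10.9 were used for summaries and plots.

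The members and the gene lists were chosen with earlier results of these data known. Named were all members, the 4 genes with the lowest p in double null against WT liver from each list, the 2 brightest of each marker list set beside a result, and for Saa3, Lcn2 and Saa1 the 5 genes most like them. Promoters came from the RefSeq table of GRCm38.p6. Same-numbered aortic arrays have source names that begin alike, and their deviations from the group means correlated at 0.30, whereas in the liver the correlations were −0.00 to 0.03. Offsets, normalization, filter, variance fit, samples, probe set rule, replicate block and single arrays left out were varied. The series design text names another control for the aorta than the titles and genotype labels, which were followed.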

Additional observations from a re-analysis of the deposited data

How the results depend on the processing

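Of 492 refits of member differences under another setting, 480 kept their direction and side of the threshold, 11 came to pass it and 1 changed sign. Those that passed are given with the results. With quantile normalization the Saa3 difference between double null and ApoE null livers was −0.0001. Members past the threshold, 0 throughout as reported, numbered 2 with 64 added and 1 with a variance trend and robust fit together in double null against WT, 2 and 1 in ApoE null against WT, 1 and 1 in double null against Dscr-1 null, and 2 and 1 in ApoE lacking against intact livers. Genes past it, in double null, ApoE null and Dscr-1 null against WT, numbered 2, 2 and 1 as reported, 1, 0 and 0 with 1 added, 23, 13 and 5 with 64 added, 77, 40 and 19 with the trend and robust fit, and 1, 1 and 0 with the mean of all probe sets. They numbered 2 with the trend and robust fit in double null against ApoE null, 9 with 64 added and 28 with the trend and robust fit in double null against Dscr-1 null, 2 and 5 for the interaction, and 29 and 70 in ApoE lacking against intact livers, where a filter on all arrays of a genotype gave 2. Fitting only the groups compared gave 0 in ApoE null and Dscr-1 null against WT and in double null against Dscr-1 null.

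With the replicate number as a block, which pairs the aortic arrays, 0 genes passed in place of 2, with Lcn2 at 2.96 and Saa3 at 1.25. Over all tested probe sets the replicate numbers did not pair the liver arrays. With the block the Saa3 difference in double null against WT was 3.0 with an adjusted p of 0.729 in limma, and no member's call changed.

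Leaving out 1 array changed the sign in 33 of 448 refits, and 2 came to pass. In double null against WT the range was −0.010 to 0.34 for Orm1 and −0.017 to 0.39 for Hpx, and in ApoE null against WT −0.090 to 3.14 for Saa1, −0.49 to 0.17 for Orm1 and −1.01 to 0.25 for Apcs. In Dscr-1 null against WT it was −0.64 to 2.58 for Saa1, −0.86 to 2.45 for Saa2, −0.14 to 1.24 for Saa3, −0.0055 to 0.34 for Orm1, −0.72 to 0.41 for Orm2, −0.18 to 0.41 for Hp, −0.090 to 0.32 for Hpx and −0.29 to 0.15 for Crp. In double null against ApoE null it was −0.018 to 0.16 for Saa3 and −0.022 to 0.96 for Saa1, and in double null against Dscr-1 null −0.46 to 2.50 for Saa1. For the interaction it was −1.17 to 0.21 for Saa3, −2.12 to 1.11 for Saa1 and −1.77 to 1.53 for Saa2, and in ApoE lacking against intact −0.25 to 0.080 for Orm1 and −0.57 to 0.062 for Apcs. In the aorta it was −0.00 to 2.51 for Saa3 and 0.42 to 5.51 for Lcn2, with 0 to 2 members and 0 to 1966 genes past the threshold. Genes past it in the liver numbered 0 to 2 in double null and in ApoE null against WT, 0 to 1 in Dscr-1 null against WT and in double null against Dscr-1 null, and 1 to 2 in ApoE lacking against intact. Members higher numbered 2 to 9 in Dscr-1 null against WT and 1 to 8 for the interaction. The cause of these changes was not tested. With 2 arrays a group and signals near the array median, as for Lcn2 in WT, small differences cannot be told from the spread.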
